A study of Mus musculus with 9 samples.

Results

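Genes of the ATF4 stress response and of serine synthesis were followed across a tumour line, a knockout line and a wild-type line of mouse airway or lung epithelium. The members are Atf4, Ddit3, Trib3, Asns, Chac1, Psat1, Phgdh, Shmt2, Slc7a11 and Slc7a5. Every probe set that carried exactly 1 of these symbols was taken, which gave 23 of 45037 non-control probe sets and 10 of 18193 genes. Of the 10 genes, 8 had several probe sets, and Chac1 and Slc7a5 had 1 each. Another 2 probe sets carry Phgdh together with a second symbol and were left out. The tumour line, MDA-F471, came from a lung adenocarcinoma of a female Gprc5a-knockout mouse, 16 months after injection of NNK, a tobacco carcinogen. The knockout line was cultured from the trachea of a Gprc5a-knockout mouse aged 3 weeks, and the wild-type line from the trachea of a Gprc5a wild-type mouse of that age. All mice were of mixed C57/BL6 x sv129 strain, and each line was measured on 3 Affymetrix MG-430 2.0 arrays. Each group is 1 line, and the labels do not say whether its arrays come from separate cultures, so p-values measure only the spread between arrays. Between the tumour line and the others, tumour origin, organ, NNK exposure, mouse age and time since injection cannot be told apart. Against the wild-type line, the Gprc5a genotype is added to these. In the knockout against the wild-type line, genotype cannot be told apart from other differences between 2 single lines.

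ATF4 is a transcription factor of the integrated stress response. Kinases that sense missing amino acids, unfolded protein in the endoplasmic reticulum (ER), haem shortage or viral RNA phosphorylate the initiation factor eIF2alpha, which slows protein synthesis in general and favours translation of the Atf4 mRNA. The ATF4 protein pairs with C/EBP proteins and switches on genes for amino acid uptake and synthesis, tRNA charging and, under lasting stress, cell death. Because ATF4 is controlled largely through translation, its mRNA level is not a measure of its activity. Serine made from the glycolytic intermediate 3-phosphoglycerate feeds glycine, folate-bound carbon units, nucleotides and glutathione.

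The deposited values are log2 signals, and array medians lay between 6.28 and 6.34. The targeted gene Gprc5a read 6.96 to 7.09 in the tumour line and 7.09 to 7.20 in the knockout line, against 8.32 to 8.74 on the wild-type arrays. The 3' minus 5' difference of beta-actin, a sign of RNA quality, was 0.37 to 0.74 on the tumour, 0.90 to 0.95 on the knockout and 0.75 to 1.78 on the wild-type arrays, with the highest value on wild-type replicate 3. The hybridisation control BioB-M read 7.60 to 8.24 on the tumour, 8.32 to 9.48 on the knockout and 8.42 to 8.57 on the wild-type arrays. The part of these differences in the results was not tested. All 5 epithelial markers were measured above the floor of 5.15 except Krt19 on 1 knockout array, but their levels differed between the lines. Epcam averaged 12.03 in the tumour, 11.73 in the knockout and 11.74 in the wild-type line, and Cdh1 averaged 11.92, 12.63 and 12.88. The simple keratin Krt8 averaged 13.99, 12.66 and 11.68, Krt18 averaged 14.08, 10.59 and 8.03, and Krt19 averaged 12.05, 5.32 and 10.22. The basal-cell keratin Krt5 averaged 8.43 in the tumour line, against 14.38 and 14.46 in the knockout and wild-type lines, and the basal-cell factor Trp63 lay under the floor on all 3 tumour arrays. All 4 basal-cell markers fell in the tumour line against both others. For that floor the 27 bacterial controls were pooled over all arrays and their 95th percentile taken. Of 5 lung lineage and alveolar markers, 3 lay near it in the tumour, knockout and wild-type lines, namely Nkx2-1 (5.35, 5.47 and 5.18), Sftpc (5.72, 5.74 and 5.78) and Sftpa1 (5.33, 5.13 and 5.41). Sftpb (7.85, 7.99 and 7.68) and Abca3 (9.52, 9.62 and 9.64) lay well above it in all 3 lines, and 0 of the 5 were called by limma in any comparison. Summed signals of 8 fibroblast markers lay between 8.79 and 8.99 log2 on all arrays, and those of 6 leukocyte markers between 9.35 and 9.64.

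A gene was called when its limma adjusted p (Benjamini-Hochberg, over all 18193 genes) was under 0.05 and its difference at least 2-fold. Each difference is the first-named line minus the second. In the tumour against the knockout line 3 of 10 members rose, namely Atf4, Trib3 and Shmt2, and 0 fell. Every gene that differed by 2-fold or more also passed the adjusted p, so the fold alone decided the calls. Of all genes, 7.79% rose and 6.38% fell in that comparison. In the tumour against the wild-type line 4 rose, namely Atf4, Trib3, Shmt2 and Slc7a11, and Slc7a5 fell, where 8.09% of all genes rose and 8.46% fell. In the knockout against the wild-type line Slc7a11 rose and Slc7a5 fell, where 1.90% of all genes rose and 2.98% fell. The comparisons share arrays and are not independent. The median log2 difference of the 10 members was 0.49 between tumour and knockout, 0.42 between tumour and wild-type and 0.01 between knockout and wild-type lines. The adjusted p was under 0.05 at any fold for 9, 8 and 4 members in the same order, and for 44.5%, 47.3% and 26.4% of all genes. In these bulk samples, a change in the share of cells that make a transcript and a change in its level per cell cannot be told apart.

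**Figure D1:**
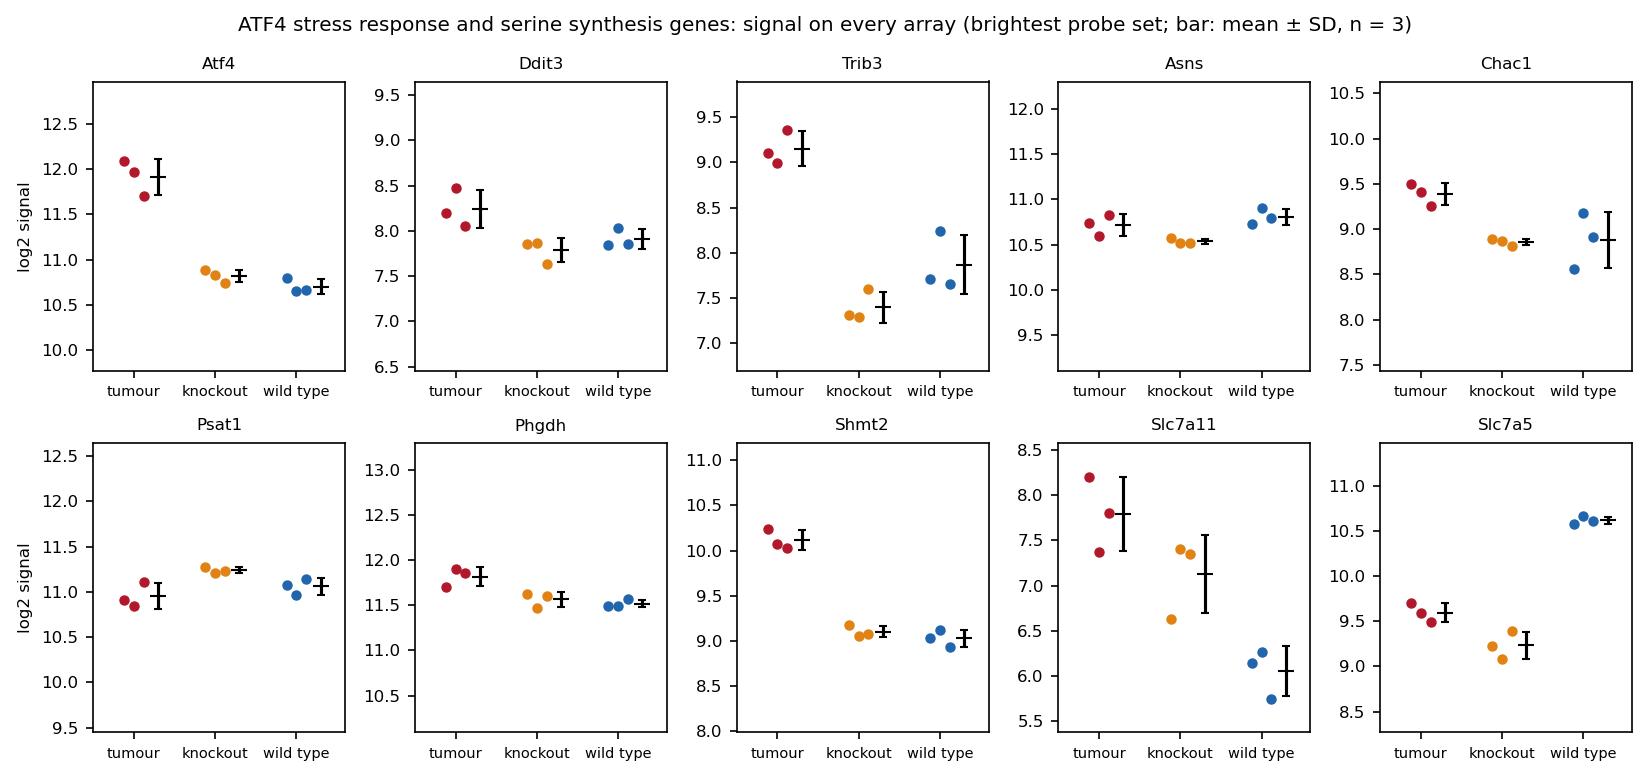
Log2 signal (vertical axis, each panel spanning the same 3.2 log2 units) of the 10 genes on every array of the tumour, knockout and wild-type lines. Each point is 1 array and each bar the mean ± SD of 3 arrays. Atf4, Trib3 and Shmt2 stand higher on all 3 tumour arrays than on the other 6, Slc7a5 stands highest on the wild-type arrays, and Asns, Psat1 and Phgdh differ little.

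The promoter sequence of the members shows which of them hold the letters that ATF4 and C/EBP dimers are known to bind. The RefSeq windows of build GRCm38.p6, from 250 bases before to 50 after each gene's start, were searched on both strands for the core TGATGNAA of the C/EBP-ATF response element. Of the 10 members, 9 are in that table, all but Slc7a5, and 4 of these hold the core, namely Slc7a11, Asns, Chac1 and Trib3. Of all 32851 windows, 3.97% hold it. That share counts windows and not genes, and the 9 members have 10 windows, 2 of them for Psat1. The windows are printed 5' to 3' on the gene's strand, with the core, or its reverse complement, in capitals:
Slc7a11, chr3:50443633-50443699, minus strand: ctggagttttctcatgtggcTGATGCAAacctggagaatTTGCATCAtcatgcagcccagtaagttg
Asns, chr6:7693210-7693252, minus strand: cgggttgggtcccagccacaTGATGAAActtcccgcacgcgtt
Chac1, chr2:119351029-119351076, plus strand: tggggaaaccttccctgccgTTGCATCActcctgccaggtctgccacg
Trib3, chr2:152344029-152344056, minus strand: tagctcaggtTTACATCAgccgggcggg
Slc7a11 holds 2 copies in opposite directions, the first beginning 66 and the second 47 bases before the start. The Asns core begins 23 bases before the start and lies on the gene's own strand. That of Chac1 begins 193 bases before the start and that of Trib3 begins at base 15 of the transcript, both on the opposite strand. These matches are a description of letters and not of binding. Of the 4 genes with the core, Trib3 and Slc7a11 were called in at least 1 comparison and Asns and Chac1 in none. Atf4 and Shmt2 were called, with no match in their windows. Slc7a5 was called too, but had no window to search. The share of all genes called in at least 1 comparison was not worked out. Whether genes with the core are called more often than others was therefore not tested.

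Among the transcription factors, Atf4 itself was 2.14-fold higher in tumour than in knockout cells. Its brightest probe set, 1448135_at, read 12.09, 11.96 and 11.70 on the tumour arrays, 10.89, 10.83 and 10.74 on the knockout arrays and 10.79, 10.65 and 10.66 on the wild-type arrays. All tumour arrays stood above the other 6, and the knockout and wild-type arrays overlapped. Tumour minus knockout came to 1.10 ± 0.11 on the log2 scale (SE, n = 3 arrays each; limma adjusted p = 5.27e-07). Tumour minus wild-type came to 1.21 ± 0.11 (limma adjusted p = 1.46e-07). Knockout and wild-type lines differed by 0.12 ± 0.11, which was not called (limma adjusted p = 0.50).

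The other Atf4 probe sets split. In a fit of all 45037 probe sets, with p adjusted over them, 1438992_x_at was 0.86 ± 0.12 higher in tumour than in knockout cells (limma adjusted p = 8.08e-05), which is under 2-fold. Against the wild-type line it rose by 1.09 ± 0.12 (limma adjusted p = 9.48e-06). The dim probe set 1439258_at read 5.04, 5.08 and 5.13 on the tumour arrays, 5.22, 5.16 and 5.34 on the knockout arrays and 4.98, 5.18 and 4.91 on the wild-type arrays. These values lie near the floor of 5.15 in all 3 lines. With the mean of all its probe sets, the dim one included, Atf4 differed by 0.60 from the knockout and 0.79 from the wild-type line in the tumour line and was no longer called.

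Ddit3 encodes CHOP, a factor that ATF4 induces and that promotes cell death under lasting ER stress. Probe set 1417516_at read 8.20, 8.47 and 8.06 on the tumour arrays, 7.86, 7.87 and 7.63 on the knockout arrays and 7.84, 8.04 and 7.86 on the wild-type arrays. The tumour arrays were the highest, by a margin under 2-fold. The tumour line differed by 0.46 ± 0.12 log2 units from the knockout line (limma adjusted p = 0.0043) and by 0.33 ± 0.12 from the wild-type line (limma adjusted p = 0.028), and neither was called. Knockout and wild-type lines differed by -0.12 ± 0.12 (limma adjusted p = 0.51). The dimmer probe set 1443897_at overlapped in all 3 lines, with differences between -0.14 and -0.05.

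Trib3, a pseudokinase that ATF4 and CHOP induce and that dampens their activity, had the largest difference among the 10 genes in the tumour against the knockout line. Probe set 1456225_x_at read 9.10, 8.99 and 9.36 on the tumour arrays, 7.31, 7.29 and 7.60 on the knockout arrays and 7.71, 8.24 and 7.65 on the wild-type arrays. The 3 lines did not overlap, with the tumour line highest and the knockout line lowest, although knockout replicate 3 and wild-type replicate 3 nearly met. Trib3 was 3.38-fold higher in tumour than in knockout cells, a log2 difference of 1.76 ± 0.15 (limma adjusted p = 1.50e-07). It was 2.43-fold higher than in the wild-type line, at 1.28 ± 0.15 (limma adjusted p = 3.76e-06). Knockout and wild-type lines differed by -0.47 ± 0.15 (limma adjusted p = 0.0313), under 2-fold. The second probe set, 1426065_a_at, read 8.61, 8.30 and 8.61 on the tumour arrays, 6.55, 6.53 and 6.54 on the knockout arrays and 6.63, 6.88 and 6.60 on the wild-type arrays. It rose by 1.97 ± 0.11 and 1.80 ± 0.11 in the tumour against the knockout and wild-type lines (limma adjusted p = 4.36e-08 and 7.85e-08 over all probe sets). Both Trib3 probe sets were thus called the same way in both tumour comparisons. Between knockout and wild-type lines, the second differed by only -0.16 ± 0.11 (limma adjusted p = 0.394 over all probe sets). In that fit the first had a limma adjusted p of 0.068.

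Chac1 breaks down glutathione and is a sensitive target of the ATF4 and CHOP branch. It read 9.50, 9.41 and 9.26 on the tumour arrays, 8.89, 8.87 and 8.82 on the knockout arrays and 8.56, 9.17 and 8.91 on the wild-type arrays. The tumour arrays were the highest, and the wild-type arrays spread more widely than those of the other lines. Tumour minus knockout came to 0.53 ± 0.13 on the log2 scale (limma adjusted p = 0.00357), and tumour minus wild-type to 0.51 ± 0.13 (limma adjusted p = 0.00459), both under 2-fold and not called. Knockout and wild-type lines differed by -0.02 ± 0.13 (limma adjusted p = 0.932).

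Asns makes asparagine from aspartate and is a classic ATF4 target. Its brightest probe set, 1451095_at, read 10.74, 10.59 and 10.83 on the tumour arrays, 10.57, 10.52 and 10.52 on the knockout arrays and 10.73, 10.90 and 10.79 on the wild-type arrays. All 9 values lay within a narrow range, with the knockout line lowest. Tumour minus knockout was 0.19 ± 0.09 (limma adjusted p = 0.127), tumour minus wild-type -0.09 ± 0.09 (limma adjusted p = 0.486) and knockout minus wild-type -0.27 ± 0.09 (limma adjusted p = 0.0421). None was called. The second probe set, 1433966_x_at, differed by 0.10, -0.32 and -0.43 in the same comparisons, which was under 2-fold as well.

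Phgdh and Psat1 catalyse the first and second steps of serine synthesis, and neither was called in any comparison. Phgdh probe set 1454714_x_at read 11.70, 11.90 and 11.85 on the tumour arrays, 11.63, 11.47 and 11.60 on the knockout arrays and 11.50, 11.49 and 11.57 on the wild-type arrays. The tumour arrays were the highest by a small margin. The tumour line differed by 0.25 ± 0.09 log2 units from the knockout line (limma adjusted p = 0.036) and by 0.30 ± 0.09 from the wild-type line (limma adjusted p = 0.0136). The other Phgdh probe sets ranged from 0.01 to 0.58 above the knockout and from 0.13 to 0.60 above the wild-type line. All 4 end in _x_at, which marks probes that can match other transcripts, so the level of Phgdh is uncertain to that extent.

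Psat1 had the opposite sign. Probe set 1451064_a_at read 10.91, 10.85 and 11.12 on the tumour arrays, 11.28, 11.21 and 11.24 on the knockout arrays and 11.08, 10.96 and 11.14 on the wild-type arrays. The tumour arrays lay under the knockout arrays and overlapped the wild-type arrays. Tumour minus knockout came to -0.29 ± 0.10 on the log2 scale (limma adjusted p = 0.0243), and tumour minus wild-type to -0.11 ± 0.10 (limma adjusted p = 0.412). Probe set 1454607_s_at differed by -0.55 ± 0.10 and -0.40 ± 0.10 in these comparisons (limma adjusted p = 0.00096 and 0.00742 over all probe sets), still under 2-fold. Knockout and wild-type lines differed by 0.18 for Psat1 and 0.05 for Phgdh on their brightest probe sets.

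Shmt2, the mitochondrial enzyme that splits serine into glycine and a folate-bound carbon unit, was 2.01-fold higher in tumour than in knockout cells and 2.12-fold higher than in the wild-type line. Probe set 1455084_x_at read 10.24, 10.07 and 10.03 on the tumour arrays, 9.18, 9.05 and 9.08 on the knockout arrays and 9.03, 9.12 and 8.94 on the wild-type arrays. All tumour arrays stood clear of the other 6, which overlapped. The tumour line differed by 1.01 ± 0.09 log2 units from the knockout line (limma adjusted p = 3.48e-07) and by 1.08 ± 0.09 from the wild-type line (limma adjusted p = 1.31e-07), against 0.08 ± 0.09 for knockout against wild-type. Of the other 3 probe sets, 1426423_at was called the same way, at 1.09 ± 0.15 and 1.24 ± 0.15, and 1434204_x_at and 1455985_x_at stood 0.80 and 0.82 above the knockout and 0.83 each above the wild-type line. The fold therefore sits at the 2-fold threshold. The tumour against knockout call was lost without knockout replicate 2 (0.98), knockout replicate 3 (0.998) or tumour replicate 1 (0.95), after quantile normalization (0.94) and with the mean of the probe sets (0.93), each at an adjusted p of at most 5.43e-06. Against the wild-type line it was lost with that mean (0.996).

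Slc7a11 encodes the light chain of the cystine-glutamate exchanger, which supplies cysteine for glutathione and is a target of both ATF4 and NRF2. Its 2 probe sets gave different orders of the lines. Probe set 1443536_at read 8.20, 7.38 and 7.81 on the tumour arrays, 6.62, 7.40 and 7.35 on the knockout arrays and 6.15, 6.27 and 5.75 on the wild-type arrays. Tumour and knockout arrays overlapped and both stood above the wild-type arrays. Probe set 1420413_at read 6.98, 6.72 and 7.69 on the tumour arrays, 6.07, 6.46 and 6.07 on the knockout arrays and 6.03, 6.31 and 5.95 on the wild-type arrays. Here the tumour arrays stood alone and the knockout and wild-type arrays overlapped.

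Between tumour and wild-type lines, Slc7a11 rose on both, by 1.74 ± 0.22 (limma adjusted p = 7.55e-06) on the first and by 1.03 ± 0.21 (limma adjusted p = 0.00209 over all probe sets) on the second. Between knockout and wild-type lines, the first gave 1.07 ± 0.22 (limma adjusted p = 0.00175) and the second 0.10 ± 0.21 (limma adjusted p = 0.832). The knockout call rests on the first probe set and on single arrays. It was lost without wild-type replicate 3 (0.92), knockout replicate 2 (0.93) or knockout replicate 3 (0.96), and with the mean of both probe sets (0.59). Between tumour and knockout lines, the differences were 0.67 ± 0.22 (limma adjusted p = 0.0216) and 0.93 ± 0.21 (limma adjusted p = 0.00453 over all probe sets), neither of them 2-fold.

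Slc7a5, the light chain of the large neutral amino acid transporter LAT1, which imports leucine and other essential amino acids, was the only member lower than in the wild-type line at 2-fold. It read 9.70, 9.59 and 9.49 on the tumour arrays, 9.22, 9.09 and 9.39 on the knockout arrays and 10.58, 10.66 and 10.61 on the wild-type arrays. The wild-type arrays stood clear of the other 6. Slc7a5 was 2.61-fold lower in the knockout than in the wild-type line, a log2 difference of -1.38 ± 0.10 (limma adjusted p = 7.49e-08). It was 2.03-fold lower in the tumour than in the wild-type line, at -1.02 ± 0.10 (limma adjusted p = 4.65e-07). Without tumour replicate 3 the difference from the wild-type line was -0.97, just under 2-fold. Tumour and knockout lines differed by 0.36 ± 0.10 (limma adjusted p = 0.00764), which was not called.

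**Figure D2:**
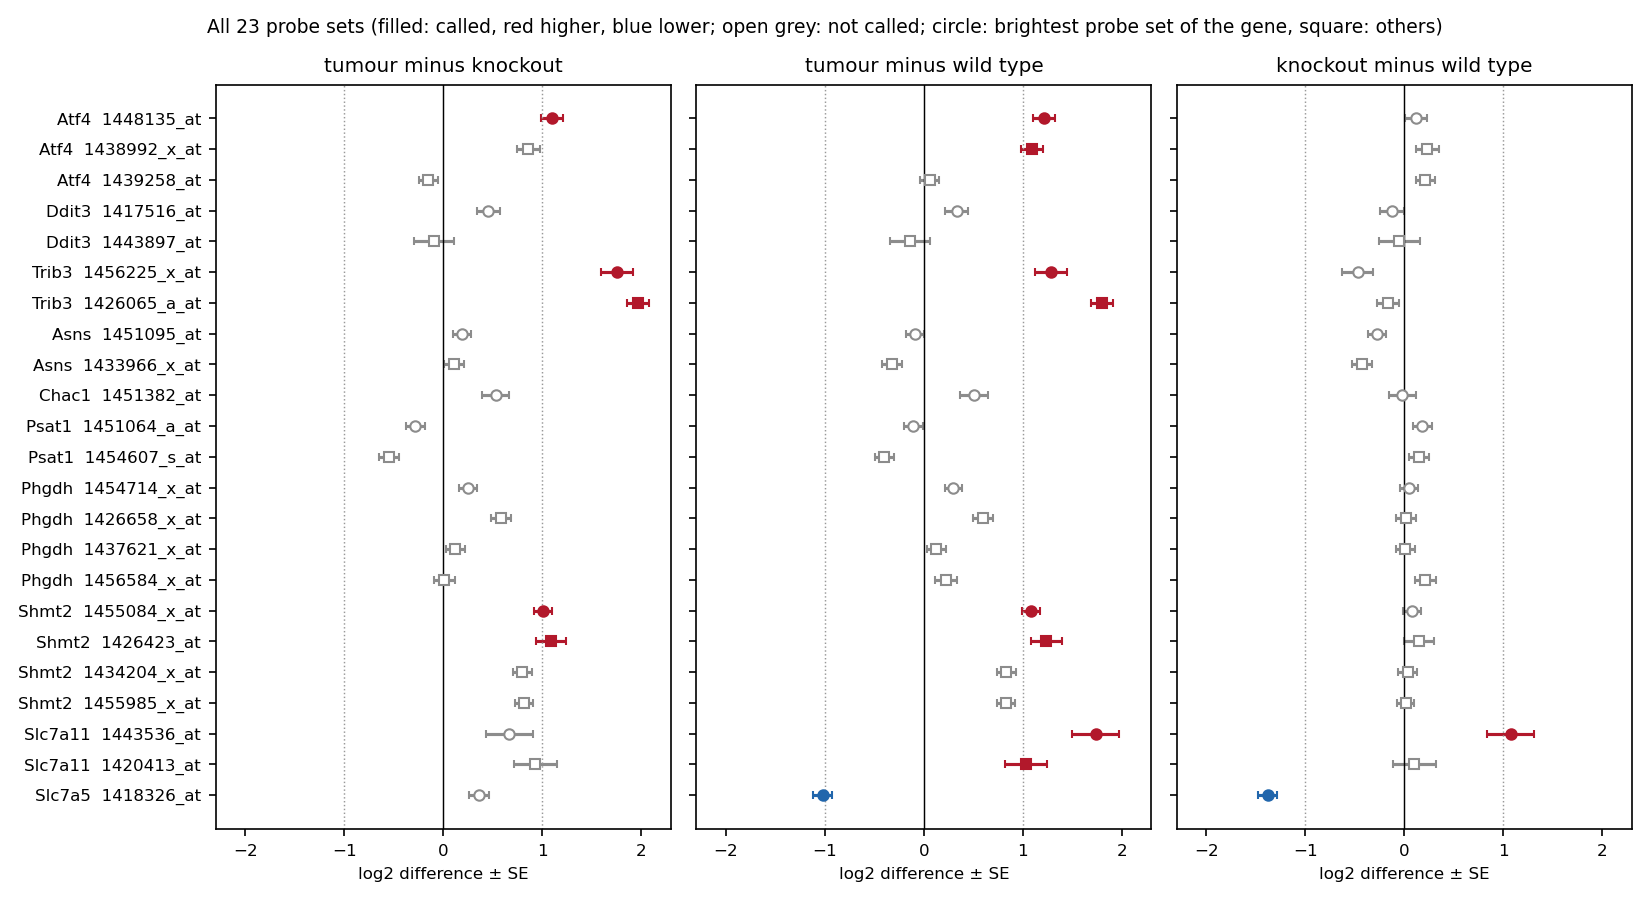
Log2 difference ± SE (horizontal axis) of each of the 23 probe sets for tumour against knockout, tumour against wild-type and knockout against wild-type, with dotted lines at 2-fold. Filled red points were called higher and filled blue points lower, open grey points were not called, and circles mark the brightest probe set of a gene. Both Trib3 probe sets lie past 2-fold in both tumour comparisons, while the 4 Shmt2 probe sets lie on either side of the line.

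Counted by probe set, 5 of 23 were called higher and 0 lower in the tumour against the knockout line, where 6.19% of all probe sets were called higher and 5.18% lower. In the tumour against the wild-type line 8 were called higher and 1 lower, beside 6.69% and 6.42% of all. In the knockout against the wild-type line 1 was called higher and 1 lower, beside 1.61% and 2.11% of all. Probe sets of 1 gene share their transcript and are not replicates.

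The counts of the 8 pathway lists that follow are to be read against the shares of all genes called, which were 7.79% higher and 6.38% lower between tumour and knockout lines, 8.09% and 8.46% between tumour and wild-type lines, and 1.90% and 2.98% between knockout and wild-type lines. In lists of 8 to 20 genes, a single gene moves the share by much of these values.

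The other enzymes of serine, glycine and one-carbon metabolism, 13 measured of 15 listed, had 2 called higher (15.4%) and 0 lower in the tumour against the knockout line, with a median of 0.43. Over all genes the median was 2.7e-05. Mthfd2, the mitochondrial enzyme that oxidises the carbon unit made by Shmt2, read 10.61, 10.38 and 10.71 on the tumour arrays, 8.52, 8.28 and 8.36 on the knockout arrays and 8.74, 9.16 and 9.05 on the wild-type arrays. It was 4.54-fold higher in tumour than in knockout cells (2.18 ± 0.12, limma adjusted p = 1.35e-09) and 3.00-fold higher than in the wild-type line (1.58 ± 0.12, limma adjusted p = 4.13e-08). Mthfd1l, which releases formate from mitochondria, rose by 1.19 ± 0.10 and 1.36 ± 0.10 in these comparisons (limma adjusted p = 9.59e-08 and 1.81e-08).

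Set against the wild-type line, in the tumour line 4 of these 13 enzymes rose and 1 fell, with a median of 0.58 beside 0.01 for all genes. Beside Mthfd2 and Mthfd1l they were the cytosolic folate enzyme Mthfd1 (1.45 ± 0.10, limma adjusted p = 1.34e-08) and the methionine synthase Mtr (1.29 ± 0.11, limma adjusted p = 1.19e-07). The call of Mtr did not hold for the average of its probe sets (0.93). Aldh1l2, which burns mitochondrial formyl-folate to carbon dioxide, went the other way. It read 5.84, 6.11 and 5.89 on the tumour arrays, 6.30, 6.40 and 5.92 on the knockout arrays and 8.20, 8.31 and 8.41 on the wild-type arrays. It was 5.14-fold lower in the tumour (-2.36 ± 0.12, limma adjusted p = 5.38e-10) and 4.29-fold lower in the knockout than in the wild-type line (-2.10 ± 0.12, limma adjusted p = 9.22e-09), the only one of the 13 called in the knockout comparison. The cytosolic Shmt1 differed by -0.07 and -0.23 from the knockout and wild-type lines in the tumour line. Psph, which completes serine synthesis, differed by 0.43 ± 0.09 and 0.63 ± 0.09 there, under 2-fold.

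**Figure D3:**
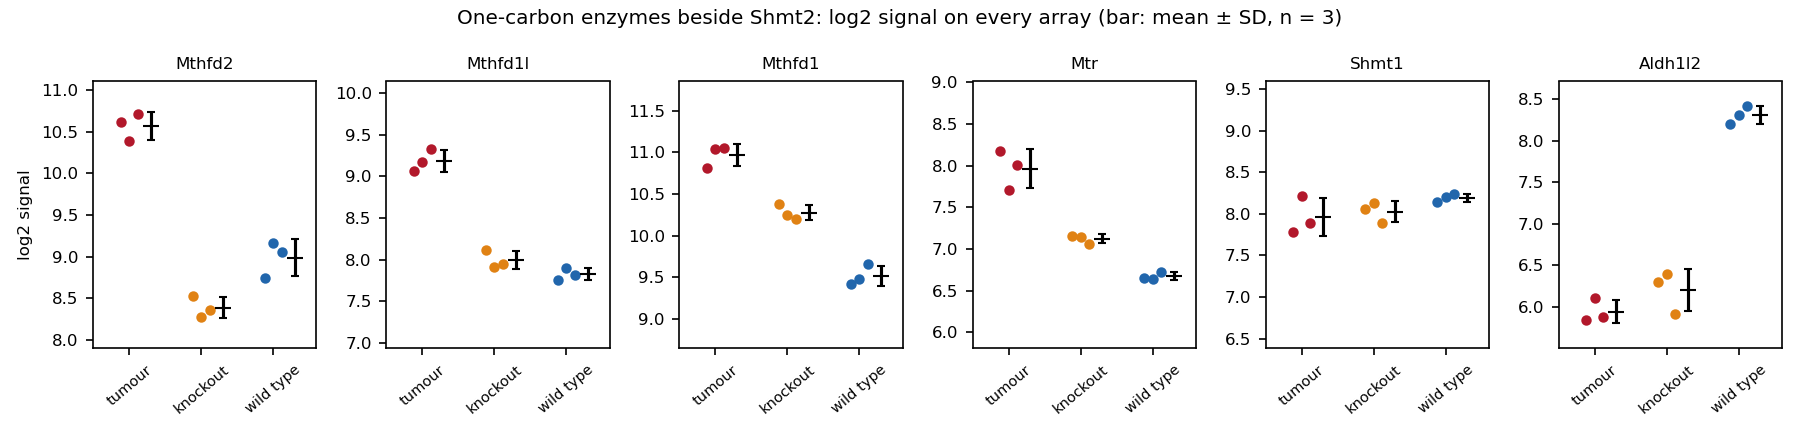
Log2 signal (vertical axis, each panel spanning the same 3.2 log2 units) of 6 one-carbon enzymes on every array of the tumour, knockout and wild-type lines, with the mean ± SD of 3 arrays. Mthfd2 and Mthfd1l are highest on the 3 tumour arrays, Shmt1 differs little, and Aldh1l2 is highest on the wild-type arrays.

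Cytosolic aminoacyl-tRNA synthetases, which load tRNAs and many of which are ATF4 targets, had 2 of 19 measured members called higher (10.5%, near the 7.79% of all genes) and 0 lower in the tumour against the knockout line, with a median of 0.44. Wars, for tryptophan, rose by 1.42 ± 0.10 (limma adjusted p = 9.85e-09) and Tars, for threonine, by 1.28 ± 0.09 (limma adjusted p = 2.39e-08). In the tumour against the wild-type line 3 rose and 0 fell, with a median of 0.51: Wars (1.42 ± 0.10), Cars (1.39 ± 0.16) and Tars (1.15 ± 0.09), with limma adjusted p of at most 3.38e-06. The call of Cars, for cysteine, did not hold for the average of its probe sets (0.90), while 5 synthetases were called higher once probe sets of the _x_at and _s_at kinds were dropped. Between knockout and wild-type lines, 0 of 19 were called by limma, with a median of 0.01.

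The kinases, phosphatase subunits and regulators of eIF2alpha had 1 of 9 measured members called, in both tumour comparisons. Impact, an inhibitor of the amino-acid-sensing kinase GCN2, averaged 9.63 ± 0.07 in the tumour, 7.27 ± 0.17 in the knockout and 7.71 ± 0.18 in the wild-type line (SD, n = 3 each). It rose by 2.36 ± 0.11 and 1.91 ± 0.11 in the tumour against the knockout and wild-type lines (limma adjusted p = 2.19e-10 and 1.88e-09), and by 0.99 and 0.84 with the mean of its probe sets, which was not called. Of the 4 kinases, the GCN2 gene Eif2ak4 differed most between tumour and knockout lines, by 0.66 (limma adjusted p = 8.18e-05). The other kinase genes had the opposite sign, with Eif2ak1 at -0.18, Eif2ak2 at -0.10 and Eif2ak3 at -0.24. Ppp1r15a, or GADD34, which restores protein synthesis after stress, differed by 0.78 (limma adjusted p = 1.51e-05). All of these stayed under 2-fold.

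Among 14 other measured ATF4 targets and partners, 0 rose and 1 fell in each tumour comparison, with medians of 0.08 against the knockout and 0.20 against the wild-type line. Single arrays move these counts. Against the knockout line 2 fell without knockout replicate 1, knockout replicate 3 or tumour replicate 2. Against the wild-type line 2 fell without wild-type replicate 2, tumour replicate 1 or tumour replicate 2, and 1 rose without wild-type replicate 2 or 3 or tumour replicate 2 or 3. The lipoprotein receptor gene Vldlr averaged 5.81 ± 0.10 in the tumour, 9.90 ± 0.13 in the knockout and 9.46 ± 0.15 in the wild-type line (SD, n = 3 each). It was 17.0-fold and 12.5-fold lower in tumour cells than in the knockout and wild-type lines (-4.08 ± 0.11 and -3.65 ± 0.11, limma adjusted p = 2.54e-13 and 6.57e-13). The stress-induced factor Atf3 differed by 0.67 and 0.999 in these comparisons, under 2-fold. In the knockout against the wild-type line 1 of the 14, the stress-induced chromatin protein Nupr1, rose by 1.20 ± 0.11 (limma adjusted p = 1.48e-06) and 0 fell. Nupr1 differed by -0.99 ± 0.11 between tumour and knockout lines (limma adjusted p = 3.36e-06), just under 2-fold. The partners Cebpb and Cebpg differed by -0.76 and -0.88 between tumour and knockout lines.

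Other amino acid transporters had 1 of 13 higher and 1 lower in the tumour against the knockout line, with a median of -0.03. The glutamine carrier Slc1a5, also called ASCT2, rose by 1.63 ± 0.15 (limma adjusted p = 2.45e-07), and by 0.81 with the mean of its probe sets, which was not called. Slc43a2, or LAT4, fell by 2.17 ± 0.10 on the log2 scale (limma adjusted p = 1.61e-10). Without knockout replicate 1, the transporters called lower numbered 2. Against the wild-type line 1 rose and 2 fell, with a median of -0.15: Slc1a5 (1.68 ± 0.15), Slc43a2 (-1.61 ± 0.10) and the arginine carrier Slc7a1 (-1.002 ± 0.09), with limma adjusted p of at most 2.26e-07. Slc7a1 lies at the threshold and was not called without wild-type replicate 3 (-0.96), without tumour replicate 1 (-0.97), after either rescaling of the arrays or with the mean of its probe sets (-0.40). Slc43a2 was not called there with that mean (-0.94). Slc3a2, the heavy chain that Slc7a5 and Slc7a11 both need at the cell surface, read 11.32, 11.19 and 11.21 on the tumour arrays, 11.75, 12.12 and 11.80 on the knockout arrays and 11.55, 11.62 and 11.57 on the wild-type arrays. Its differences were -0.65, -0.34 and 0.30 for tumour against knockout, tumour against wild-type and knockout against wild-type, all under 2-fold.

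Enzymes of proline, glutamine, alanine and arginine metabolism went both ways, with 2 of 10 higher and 1 lower in the tumour against the knockout line, with a median of 0.42. The aspartate aminotransferase Got1 rose by 1.97 ± 0.11 and the proline-degrading Prodh by 2.08 ± 0.12, and the alanine aminotransferase Gpt2 fell by 1.69 ± 0.13 (limma adjusted p of at most 6.48e-08). Between tumour and wild-type lines, 3 rose and 2 fell, with a median of 0.31, with Got1 (3.10 ± 0.11), Prodh (1.54 ± 0.12) and the arginine-forming Asl (1.04 ± 0.10) higher and Gpt2 (-2.05 ± 0.13) and Glul lower (limma adjusted p of at most 6.70e-07). The Gpt2 calls were lost once probe sets of the _x_at and _s_at kinds were dropped (-0.58 and -0.86). Glul, which makes glutamine, read 9.53, 9.57 and 9.21 on the tumour arrays, 8.87, 8.80 and 8.96 on the knockout arrays and 11.02, 11.11 and 11.29 on the wild-type arrays. It fell by 1.70 ± 0.11 in the tumour and by 2.27 ± 0.11 in the knockout against the wild-type line (limma adjusted p = 6.41e-09 and 1.28e-09). Between knockout and wild-type lines, Got1 rose by 1.13 ± 0.11 (limma adjusted p = 1.62e-06), so that 1 of the 10 rose and 1 fell, with a median of 0.03.

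ER chaperones and the ATF6 and XBP1 arms of the unfolded protein response had 2 of 20 higher and 2 lower in the tumour against the knockout line, with a median of 0.02. The sensor Atf6 rose by 1.34 ± 0.10 and the secreted factor Creld2 by 1.15 ± 0.11, while Dnajc3, an ER co-chaperone, fell by 1.50 ± 0.10 and the factor Xbp1 by 1.14 ± 0.13 (limma adjusted p of at most 4.18e-06). With the mean of their probe sets Dnajc3 (-0.84) and Xbp1 (-0.86) were not called, nor was Xbp1 once probe sets of the _x_at and _s_at kinds were dropped (-0.49). Against the wild-type line 2 rose, Atf6 (1.48 ± 0.10) and Creld2 (1.18 ± 0.11), and Dnajc3 fell (-1.19 ± 0.10, but only -0.75, and not called, when its probe sets are averaged), with a median of 0.14 and limma adjusted p of at most 2.18e-07. The main ER chaperone Hspa5, or BiP, differed by 0.95 and 0.81 in the tumour against the knockout and wild-type lines, under 2-fold. The disulphide isomerase Pdia4 differed by 0.97 ± 0.22 and 0.55 ± 0.22, also under 2-fold. It read 8.48, 8.53 and 9.64 on the tumour arrays, so replicate 3 weighs heavily in both. Others that were not called fell, among them Dnajb9 (-0.57 and -0.76), Herpud1 (-0.48 and -0.84) and Calr (-0.38 and -0.68). With no fold threshold, 8 of 20 were called higher and 9 lower against the knockout line, where 44.5% of all genes were called in either direction. Against the wild-type line these counts were 8 and 6, beside 47.3% of all genes in either direction. Without tumour replicate 2, the genes called higher than in the knockout line numbered 4. In the knockout against the wild-type line the sensor Ern1 rose by 1.05 ± 0.10 (limma adjusted p = 2.38e-06), the only one of 20 called. It was not called without wild-type replicate 1 (0.96) or with the mean of its probe sets (0.37).

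Because Slc7a11 is shared with the NRF2 response, 8 other measured NRF2 targets were set beside it. In the tumour against the knockout line 3 rose and 1 fell, with a median of 0.69. Thioredoxin reductase Txnrd1 was 5.36-fold higher (2.42 ± 0.09), malic enzyme Me1 6.09-fold higher (2.61 ± 0.15) and glutathione reductase Gsr 2.48-fold higher (1.31 ± 0.11), with limma adjusted p of at most 1.40e-07. Haem oxygenase Hmox1 fell by 1.20 ± 0.13 on the log2 scale (limma adjusted p = 1.71e-06). In the tumour against the wild-type line Txnrd1 and Gsr rose and Hmox1 fell, with a median of 0.81. Between knockout and wild-type lines, Me1 fell by 1.86 ± 0.15 (limma adjusted p = 2.20e-07) and 0 rose, with a median of 0.12. Gclc, for the first step of glutathione synthesis, was higher on all 3 knockout arrays by 0.97 ± 0.11 (limma adjusted p = 1.25e-05), just under 2-fold. The number that rose was 1 without wild-type replicate 3, without knockout replicate 1 or after quantile normalization.

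**Figure D4:**
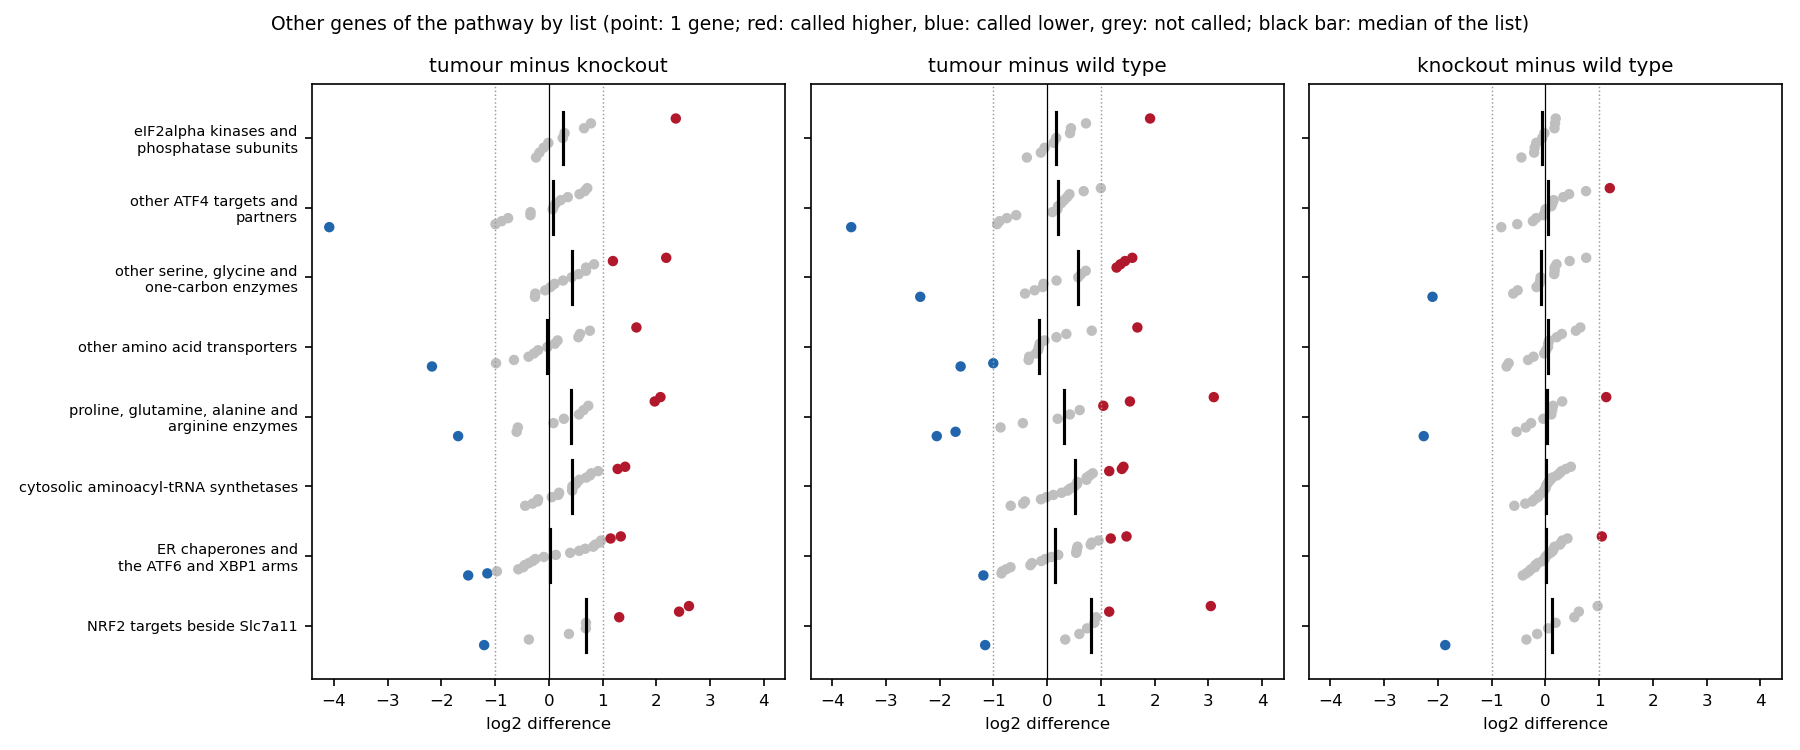
Log2 difference (horizontal axis) of every measured gene of 8 pathway lists for tumour against knockout, tumour against wild-type and knockout against wild-type, with the list's median as a black bar and dotted lines at 2-fold. Red points were called higher, blue points lower and grey points not called. In the tumour comparisons the NRF2 list has the largest medians (0.69 and 0.81). Those of the one-carbon and tRNA synthetase lists lie between 0.43 and 0.58, and those of the remaining lists between -0.15 and 0.42. Most single genes stay under 2-fold.

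For the 5 members whose line means span at least 1 log2 unit, the genes with the most alike profile over the 9 arrays were sought. They were taken from 3733 genes that span as much, with all members left out. The arrays of a line move together, so these correlations mostly describe 3 line means. Atf4 was closest to Ube2c, a ubiquitin enzyme of mitosis (Pearson r = 0.997), which averaged 11.28 in the tumour, 8.82 in the knockout and 8.46 in the wild-type line, and to the ephrin receptor gene Epha2 (r = 0.995). Trib3 was closest to Slc16a6 (r = 0.991) and Ssx2ip (r = 0.991). Slc16a6 averaged 5.64 in the tumour line, against 4.48 in the knockout and 4.78 in the wild-type line, and lay under the floor on 6 of the 9 arrays, so its rank rests on background values there. Shmt2 was closest to 1700017B05Rik (r = 0.995) and Iqsec1 (r = 0.994). Slc7a5 was closest to Glul (r = 0.992), of the glutamine enzymes above, and to the glutathione transferase gene Gstm2 (r = 0.987). Slc7a11 had the least close neighbours, Ythdf3 (r = 0.955) and Ttc30a1 (r = 0.947).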

How the data were processed

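Each array's column, as deposited by the authors, holds log2 signals. How they corrected background, summarised probes and scaled arrays is not given in the sources used here. Probe sets were named through the platform annotation: 34945 carried 1 symbol, 932 several and 9160 none, beside 64 controls. Among a gene's single-symbol probe sets, the brightest on average stood for it. One linear model over all 9 arrays (6 residual degrees of freedom) was fitted per gene, and again per probe set, with limma 3.58.1 (lmFit, eBayes) in R 4.3.3 and tested on simulated data. All limma p-values are two-sided. Calls needed an adjusted p under 0.05 and at least 2-fold. Arrays give no counts, so their number limits the precision.

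The members and the 8 pathway lists (106 of 115 genes measured), the floor and the thresholds were chosen with earlier results of these data known. All member probe sets were named, and up to 5 called genes per list and comparison by size of difference. For each member whose line means span 1 log2 unit, the 2 best correlated non-member genes were named. Uncalled genes named beside the called ones were chosen after their values were seen. No set test was run. Alternatives were 2 rescalings, a filter on dim probe sets, other choices of probe set, other fold thresholds, an intensity trend, fits of 2 lines, a replicate block and leaving out each array.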

Additional observations from a re-analysis of the deposited data

How the results depend on the processing

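The 10 members' differences in 3 comparisons were recomputed under 20 alternatives, which gave 597 values. Of these, 570 kept their direction and their side of the threshold, 13 lost a call, 12 gained one and 2 changed sign. Every gene with a difference of 2-fold or more passed the adjusted p in the reported fit (888, 2578 and 3012 genes for knockout against wild-type, tumour against knockout and tumour against wild-type). The trend, block, fits of 2 lines, fit of every probe set and filter on dim probe sets change a member's error but not its difference. Leaving out an array of a line outside the comparison does not change the difference either. These alternatives could hardly move a 2-fold call, so many of the 570 values had little room to change. The genes called numbered 2178, 4881 and 5386 at 1.5-fold and 4805, 8103 and 8614 with no fold threshold. Phgdh has no value once probe sets of the _x_at and _s_at kinds are dropped. The sign changes were those of Chac1 in the knockout against the wild-type line, which was not called and came to 0.046 after quantile normalization and -0.19 to 0.12 with 1 array left out, the positive end without wild-type replicate 2. When all probe sets of a gene were averaged, the members called higher were 1 for tumour against knockout, 2 for tumour against wild-type and 0 for knockout against wild-type, as dim or discordant probe sets enter the mean. With no fold threshold, 8 were higher and 1 lower for tumour against knockout, and 7 higher and 1 lower for tumour against wild-type. For knockout against wild-type, 1 was higher and 3 lower. Leaving out 1 array gave 2 to 3 members higher for tumour against knockout, 0 to 1 lower for tumour against wild-type and 0 to 1 higher for knockout against wild-type. Of 960 recomputed counts of the pathway lists, 108 moved by over 1.5 times or to or from 0, and 72 of these under the other fold thresholds. The titles number the arrays of each line alike, but deviations of same-numbered arrays correlated between -0.14 and 0.12, and those of other pairs between -0.25 and 0.23. The replicate block left the members' counts at 3, 4 and 1 higher and 0, 1 and 1 lower, for tumour against knockout, tumour against wild-type and knockout against wild-type. Of the 9 arrays, 4 were closest to an array of their own number.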
